A study of Homo sapiens with 6 samples.

Results

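Genes of the BCL2 family were examined in 92.1 cells, a human cell line of uveal melanoma, that had been exposed for 2 h to 1 µM VS-4718 or to DMSO vehicle alone. VS-4718 inhibits focal adhesion kinase, which signals from sites where cells attach to the matrix. RNA was sequenced from 3 VS-4718 libraries and 3 vehicle libraries, all from this single line grown in serum; the design text calls the samples independent, but the labels do not say whether these were separate cultures. The family was taken as the rows named BMF, BBC3, BAX, BAD, BAK1, BID, BCL2L11, BCL2L1, BCL2 or MCL1. Of these 10 genes, 8 had a row among the 12306 used here; BID and BAK1 had none.

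BCL2 proteins decide whether the outer mitochondrial membrane stays intact. BAX and BAK1 form the pores through which cytochrome c escapes, after which caspases are activated. BCL2, BCL2L1 (BCL-XL) and MCL1 hold the pore formers in check. The BH3-only proteins BMF, BBC3 (PUMA), BAD, BID and BCL2L11 (BIM) carry a short helix that sits in a groove of the inhibitors and blocks them, and some also activate BAX and BAK1 directly. BMF and BCL2L11 are known for being released from the cytoskeleton, where dynein light chains bind them, and BMF was described in cells that lose attachment. In melanocytes BCL2 is a known target of the lineage factor MITF.

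The stretch that encodes the BH3 helix is shown because it is what the proteins of both classes share. Each is 45 bases of coding sequence from GENCODE 29 transcripts (GRCh38), 5′ to 3′. Capitals mark the leucine codon and, after 3 codons of any kind, a codon for glycine, alanine or serine followed by an aspartate codon. That pattern occurred once in frame in each of the 8 measured coding sequences.
BMF, exon 4, chr15:40104192-40104236, minus strand: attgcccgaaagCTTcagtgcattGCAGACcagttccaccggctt
BBC3, exon 3, chr19:47226576-47226620, minus strand: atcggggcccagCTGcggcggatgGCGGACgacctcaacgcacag
BAD, exon 2, chr11:64271619-64271663, minus strand: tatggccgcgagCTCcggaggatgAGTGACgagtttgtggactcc
BCL2L11, exon 4, chr2:111150091-111150135, plus strand: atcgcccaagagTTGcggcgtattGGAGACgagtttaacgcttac
BAX, exon 3, chr19:48955775-48955819, plus strand: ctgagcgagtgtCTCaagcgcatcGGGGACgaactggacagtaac
BCL2L1, exon 2, chr20:31721919-31721963, minus strand: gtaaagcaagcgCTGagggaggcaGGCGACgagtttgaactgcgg
BCL2, exon 1, chr18:63318346-63318390, minus strand: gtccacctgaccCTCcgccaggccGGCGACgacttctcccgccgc
MCL1, exon 1, chr1:150578862-150578906, minus strand: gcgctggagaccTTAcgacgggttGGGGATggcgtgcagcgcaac
The BMF stretch was most like that of BCL2L11, with 60.0% identical bases at the same positions, against 51.1% for BBC3 and 46.7% for BAD. Identity to BMF was 42.2% for BAX, BCL2L1 and BCL2 and 31.1% for MCL1.

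Values were deposited as the log2 of an abundance like TPM, that is, per transcript length and scaled to a fixed total. It keeps no read total, so depth is unknown and no counting error can be given. Row names follow mouse usage, and 2665 of the rows matched no human gene; these held 43.7% to 44.7% of the summed values in VS-4718 libraries and 43.5% to 43.7% in vehicle libraries. The unmatched names include names in mouse style, such as 0610009B22RIK, and some of these rows are high. GM15732 had log2 values of 10.07 with VS-4718 and 9.98 with vehicle. No source used here names the transcript index behind the values, and whether a row counts human or mouse transcripts was not tested. Each level, and the order of levels between members, therefore belongs to rows of this table, and the human positions and overlaps given below are those of the human gene of the same name. The melanocyte markers fixed for the check (9 of 9 with a row) summed to 7096 to 7774 TPM-like units in VS-4718 libraries and 7307 to 7892 in vehicle libraries. PMEL, at a log2 value of 12.24 in VS-4718 and 12.21 in vehicle, carried most of this, whereas TYR (-3.51 and -2.20) and MLANA (-1.24 and -1.82) were nearly missing. Whether the low TYR and MLANA values belong to the cells or to the index was not tested. Of markers of other cell types, a row was found for 4 of 5 (fibroblast), for 1 of 5 (immune), for 2 of 4 (endothelial) and for 1 of 5 (epithelial). Their summed values with VS-4718 and with vehicle were 1.15 to 1.67 and 0.506 to 1.45 (fibroblast), 0.0451 to 0.0592 and 0.0259 to 0.142 (immune), 3.86 to 8.60 and 5.11 to 7.56 (endothelial) and 0.243 to 0.473 and 0.118 to 0.501 (epithelial). The part of these other cell types in the results was not tested.

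BMF, BBC3 and BAX, all promoters of apoptosis, had higher values in every VS-4718 library than in any vehicle library, at 1.51, 1.34 and 1.18 times the vehicle geometric mean. None of the 3 passed the test across all rows. BAD stood at 1.13 times vehicle with overlapping groups. The inhibitors BCL2L1, BCL2 and MCL1 stood at 0.964, 0.938 and 1.08 times vehicle, all with overlapping groups.

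The test was limma across the 9229 rows whose mean lay above the lowest 25%, with Benjamini-Hochberg adjustment and a threshold of 0.05; 7 members were tested, BCL2L11 being too low. In limma 0 of the 7 passed, where 0.13% of all tested rows did. At an unadjusted p under 0.05 there were 3 members, all higher with VS-4718 (3.02% of all tested rows were higher at that p, and 9.76% in either direction). The groups did not overlap for the same 3 members, BMF, BBC3 and BAX; among all tested rows 5.15% were higher without overlap. The median log2 difference was 0.33 over the 4 tested pro-apoptotic members and -0.05 over the 3 anti-apoptotic ones, against -0.03 over all tested rows. Whether the classes differ from each other was not tested, since the genes were chosen with results of these data known.

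**Figure D1:**
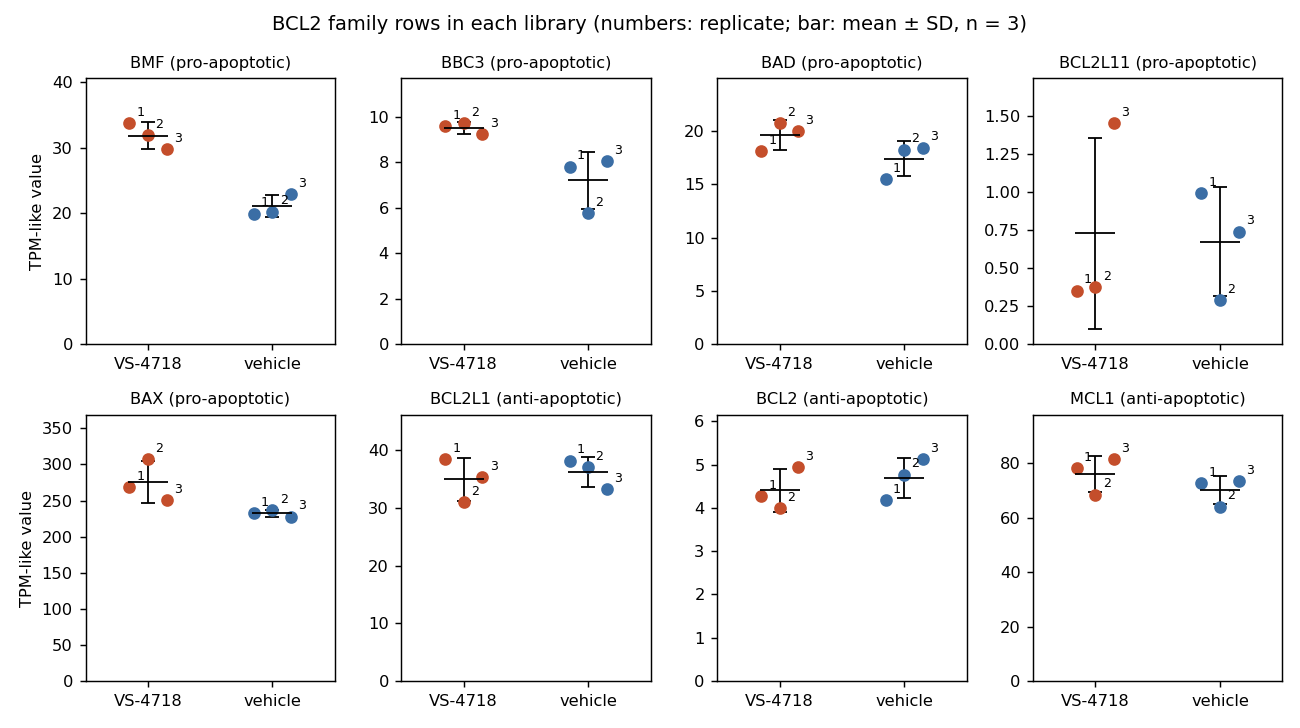
TPM-like value (y axis, from 0) of the 8 measured BCL2 family rows in each VS-4718 and vehicle library; points are libraries with their replicate number, and bars the mean ± SD (n = 3). BMF, BBC3 and BAX show no overlap between groups, and BCL2L11 stays below 1.5 units throughout.

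BMF, a BH3-only protein tied to the actin cytoskeleton, stood furthest from its vehicle level. It had 33.8, 32.0 and 29.8 TPM-like units in VS-4718 replicates 1 to 3, against 19.9, 20.3 and 23.0 in vehicle replicates 1 to 3. The lowest treated library lay above the highest vehicle library. The means were 31.9 ± 2.02 with VS-4718 and 21.1 ± 1.67 with vehicle (SD, n = 3 each). The log2 difference was 0.60 (SE 0.09, 95% interval 0.38 to 0.81), a ratio of 1.51, with an unadjusted limma p of 0.000324 and an adjusted p of 0.135. Of the 9229 tested rows, 20 had a smaller p. A larger positive difference was seen in 133 rows, of which 15 were among the 4615 rows at or above the median level. In bulk RNA, a change in the number of cells with a transcript and a change in its amount per cell cannot be told apart.

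BMF lies on chromosome 15 from 40087890 to 40108892, minus strand, and is protein coding, and each value covers the whole gene. Its exons overlap those of BMF-AS1 on the opposite strand. No source used here gives the strandedness, so reads from the shared stretch may not be told apart. Whether BMF-AS1 was in the transcript index is not known. The bases before its GENCODE start are shown because BMF leads the family here (RefSeq, GRCh38.p14, chr15:40108893-40109129, minus strand), with a GC box (GGGCGG) in capitals.
BMF: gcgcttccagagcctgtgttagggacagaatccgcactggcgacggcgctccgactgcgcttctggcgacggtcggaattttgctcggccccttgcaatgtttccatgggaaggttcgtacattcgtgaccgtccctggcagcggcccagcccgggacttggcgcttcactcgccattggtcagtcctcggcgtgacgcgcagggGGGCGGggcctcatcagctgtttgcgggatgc
Both strands of the 250 bases before each RefSeq start were searched for CACGTG (E-box), GTAAACA (FOXO), TGANTCA (AP-1), GGGCGG (GC box), GGAATG (TEAD) and TGACGTCA (CRE). BMF had more than 1 RefSeq start. Its window from 40108880 to 40109129, which includes the bases shown, held the GC box once and none of the other letters. At least 1 GC box was held by 42.6% of the 35116 promoter windows. The BMF window from 40106967 to 40107216 held none of the letters searched. Of the 10 genes 9 had a promoter entry; MCL1 did not.

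BBC3 encodes PUMA, a BH3-only protein known as a target of FOXO factors. It had 9.59, 9.73 and 9.22 TPM-like units in VS-4718 libraries, against 7.81, 5.76 and 8.04 in vehicle libraries. The treated libraries lay close together, and vehicle replicate 2 lay apart from the other two. The log2 difference was 0.42 (SE 0.15, 95% interval 0.06 to 0.77; limma unadjusted p = 0.0269, adjusted p = 0.457). Without vehicle replicate 2 it was 0.26 (adjusted p = 0.577). The gene lies on chromosome 19 from 47220822 to 47232766, minus strand, and its promoter window held 1 E-box and 1 AP-1 match. At least 1 such match was held by 6.34% (E-box) and 6.57% (AP-1) of all windows.

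BAX, the pore-forming member with a row, was the most abundant member in both groups. It had 268, 307 and 250.1 TPM-like units in VS-4718 libraries, against 232, 237 and 228 in vehicle libraries. The treated libraries spread more widely (SD 29.1) than the vehicle libraries (SD 4.62). The log2 difference was 0.24 (SE 0.08, 95% interval 0.06 to 0.42; limma unadjusted p = 0.0177, adjusted p = 0.401). Without VS-4718 replicate 2, the highest library, it was 0.16 (adjusted p = 0.576).

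BAX lies on chromosome 19 from 48954815 to 48961798, plus strand. Its promoter window held the E-box CACGTG, the site read by MITF, MYC and related factors, 4 times. Of the 35116 windows, 5 (0.014%) held at least as many, the BAX window included, and 6.34% held at least 1. The sites are shown with 10 bases on each side (RefSeq, GRCh38.p14, plus strand), the E-box in capitals. The downstream sites lie within the GENCODE gene.
BAX site 1, chr19:48954727-48954752: attggacagtCACGTGacgggaccaa
BAX site 2, chr19:48954772-48954797: caggtgcggtCACGTGacccggcggc
BAX site 3, chr19:48954820-48954845: gcggggcggcCACGTGaaggacgcac
BAX site 4, chr19:48954851-48954876: gcggggctctCACGTGacccgggcgc
A match describes letters in a window, and binding was not measured. MITF itself had a log2 value of 5.67 with VS-4718 and 5.55 with vehicle (difference 0.12, SE 0.13, limma adjusted p = 0.780).

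BAD, a BH3-only protein that survival kinases keep phosphorylated and inactive, had 18.1, 20.8 and 20.0 TPM-like units in VS-4718 libraries, against 15.5, 18.2 and 18.4 in vehicle libraries. VS-4718 replicate 1 lay within the vehicle range, so the groups overlapped. The log2 difference was 0.18 (SE 0.10, 95% interval -0.07 to 0.42; limma adjusted p = 0.631). BAD lies on chromosome 11 from 64269830 to 64284704, minus strand, and its exons overlap those of GPR137 on the other strand. The GPR137 row had log2 values of 2.25 ± 0.04 with VS-4718 and 2.12 ± 0.26 with vehicle (SD, n = 3 each).

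BCL2L11 encodes BIM, which ERK signalling marks for degradation. It had 0.351, 0.376 and 1.45 TPM-like units in VS-4718 libraries, against 0.991, 0.291 and 0.739 in vehicle libraries. A single treated library was the highest and a vehicle library the lowest, and the groups overlapped. The mean log2 value of -0.77 was below the filter. With no filter the log2 difference was -0.05 (SE 0.69, 95% interval -1.69 to 1.58, limma adjusted p = 0.990), so changes within that interval remain possible. It lies on chromosome 2 from 111119378 to 111168447, plus strand, and its exons overlap those of MIR4435-2HG on the opposite strand. The BCL2L11 promoter window, from 111120664 to 111120913, lies within the GENCODE gene, downstream of its start. That window held the FOXO letters once, as 2.98% of all windows held at least 1. The GC box occurred 3 times in it, and 13.9% of all windows held at least as many. The windows of the other 8 members with an entry held no FOXO match.

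**Figure D2:**
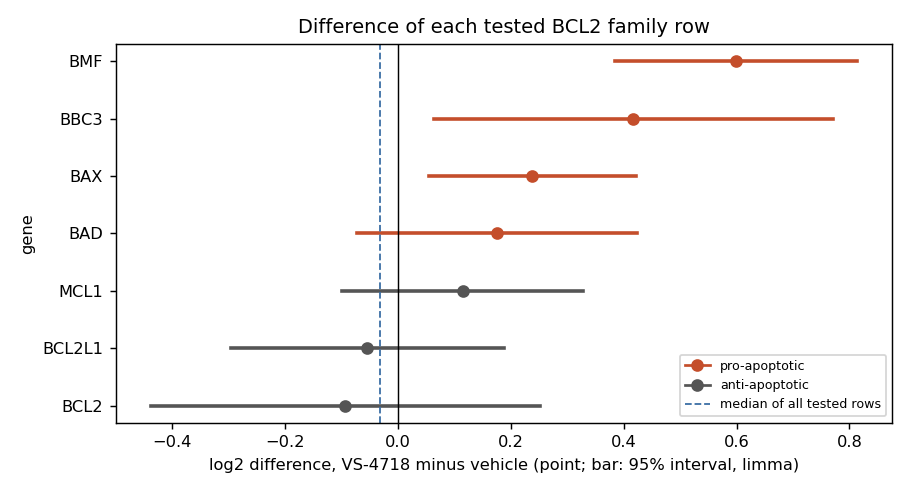
Log2 difference, VS-4718 minus vehicle (x axis), of the 7 tested BCL2 family genes with its 95% interval from limma; the dashed line is the median of all tested rows (-0.03). The intervals of BMF, BBC3 and BAX lie above 0, and those of the other 4 genes include it.

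Among the inhibitors, MCL1, a short-lived protein, had 78.1, 68.5 and 81.4 TPM-like units in VS-4718 libraries, against 72.8, 64.1 and 73.5 in vehicle libraries. VS-4718 replicate 2 and vehicle replicate 2 were the lowest of their groups. The log2 difference was 0.12 (SE 0.09, 95% interval -0.10 to 0.33; limma adjusted p = 0.706). BCL2L1, which encodes BCL-XL, had 38.4, 31.0 and 35.4 TPM-like units in VS-4718 libraries, against 38.2, 37.1 and 33.3 in vehicle libraries. The groups spanned nearly the same range. The difference was -0.05 (SE 0.10, 95% interval -0.30 to 0.19; limma adjusted p = 0.883).

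BCL2, the founding inhibitor of the family, had the lowest level of the 3 inhibitors. It had 4.27, 3.99 and 4.95 TPM-like units in VS-4718 libraries, against 4.19, 4.77 and 5.12 in vehicle libraries. Both groups covered much the same values. The log2 difference was -0.09 (SE 0.14, 95% interval -0.44 to 0.25; limma adjusted p = 0.861). As ratios, the intervals ran from 0.739 to 1.19 for BCL2, from 0.815 to 1.14 for BCL2L1 and from 0.934 to 1.26 for MCL1, so changes within those bounds remain possible. MCL1 lies on chromosome 1 from 150574551 to 150579738, BCL2L1 on chromosome 20 from 31664452 to 31723989 and BCL2 on chromosome 18 from 63123346 to 63320128, all on the minus strand. BCL2L1 overlaps exons of ABALON on the opposite strand.

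The order of the members by mean TPM-like value, which is per transcript length, was the same in both groups: BAX, MCL1, BCL2L1, BMF, BAD, BBC3, BCL2 and BCL2L11. BAX averaged 275 ± 29.1 units with VS-4718 and 232 ± 4.62 with vehicle, and MCL1 76.0 ± 6.70 and 70.1 ± 5.23 (SD, n = 3 each). BMF and its upper neighbour BCL2L1 overlapped with VS-4718, at 29.8 to 33.8 against 31.0 to 38.4 units. With vehicle they lay apart, at 19.9 to 23.0 for BMF against 33.3 to 38.2 for BCL2L1. The other neighbours in the order did not overlap in either group. The spread between replicates was ordinary for the level: between 32.0% and 76.8% of the 500 tested rows nearest in mean had a smaller residual SD than the member, the highest share being that of BAX.

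**Figure D3:**
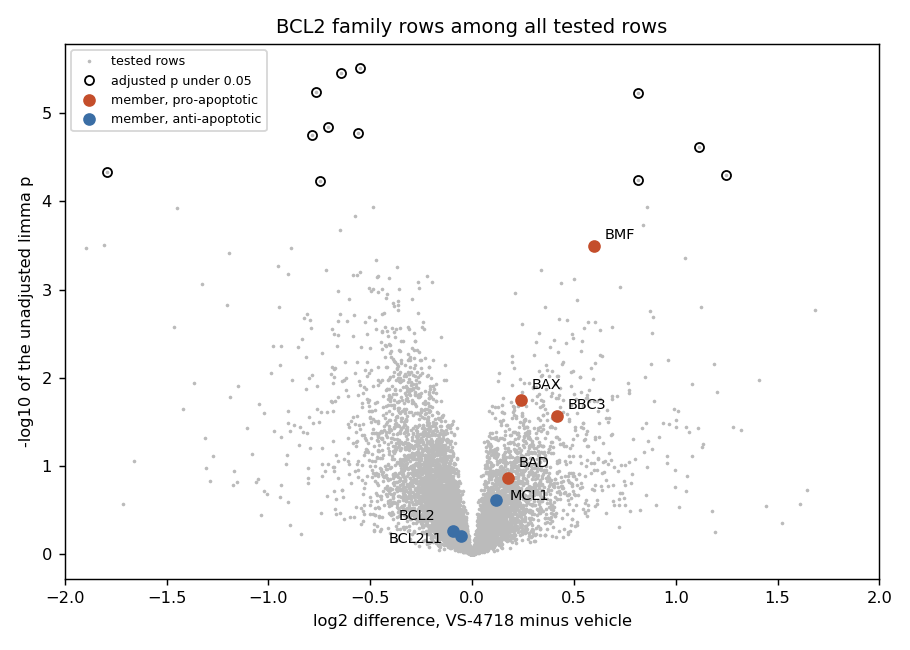
Unadjusted limma p on a -log10 scale (y axis) against the log2 difference, VS-4718 minus vehicle (x axis), for the tested rows, with the 7 BCL2 family members in colour and the 12 rows past the threshold circled; 9 rows lie beyond the axis. BMF lies below the circled rows, and the inhibitors lie near the centre.

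The BMF difference kept its direction in all 15 other settings tried, between 0.56 and 0.66, and passed in none, with limma adjusted p between 0.105 and 0.470. BBC3 and BAX also stayed positive in all 15, from 0.26 to 0.50 and from 0.16 to 0.30. Their unadjusted p was under 0.05 in 11 and 14 of the settings. The direction was fixed in advance in many of these settings, so its keeping is no separate evidence. A replicate block, another filter, no trend or robust variances leave the difference itself unchanged. Leaving out a library cannot reverse groups that do not overlap.

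**Figure D4:**
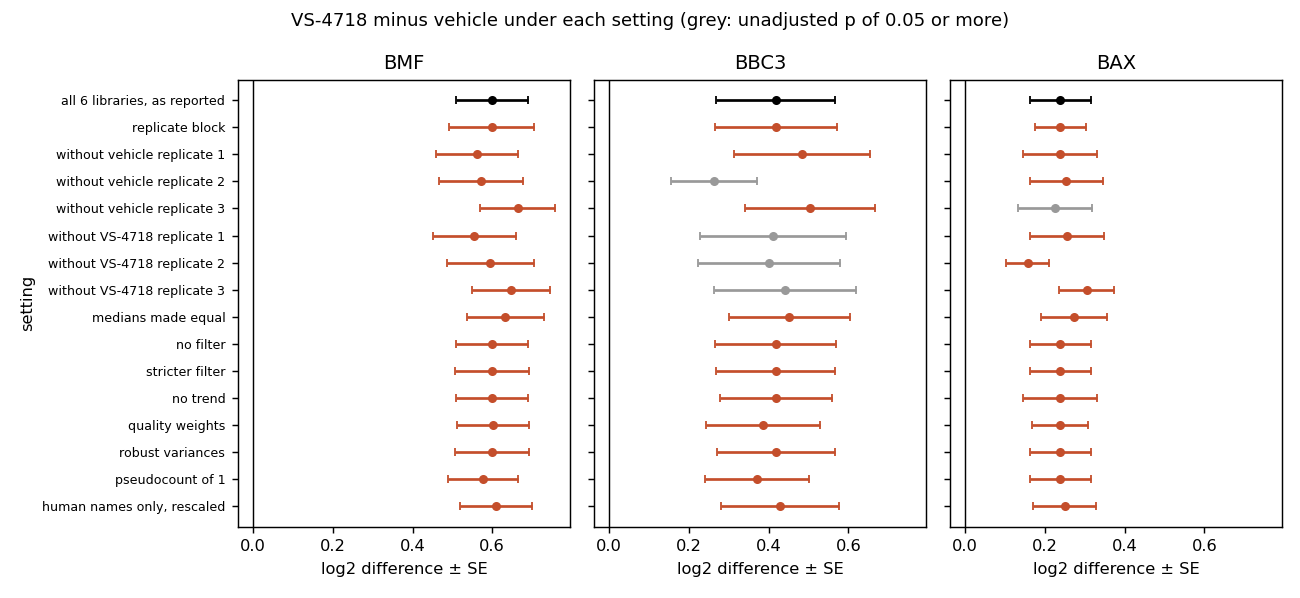
Log2 difference ± SE (x axis) of BMF, BBC3 and BAX, VS-4718 minus vehicle, with all 6 libraries and under each other setting (y axis); grey marks an unadjusted p of 0.05 or more. BMF has no grey point, BBC3 has 4 and BAX has 1, and none lies below 0.

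Genes around the family were taken from 6 lists of 91 genes; 67 had a row and 55 were tested. In limma 0 of the 55 passed (0.13% of all tested rows did), and 9 had an unadjusted p under 0.05, 1 higher and 8 lower with VS-4718 (of all tested rows, 6.74% were lower at that p). Means were higher for 14 and lower for 41, with a median log2 difference of -0.05. Over all tested rows 58.2% were lower.

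The dynein light chains that hold BMF and BCL2L11 on the cytoskeleton had lower means with VS-4718. DYNLL2, the partner of BMF, had log2 values of 5.72 ± 0.04 with VS-4718 and 5.87 ± 0.04 with vehicle (difference -0.15, SE 0.06, limma adjusted p = 0.487). DYNLL1, the partner of BCL2L11, had 8.96 ± 0.10 with VS-4718 and 9.18 ± 0.03 with vehicle (difference -0.21, SE 0.06, limma adjusted p = 0.351; SD, n = 3 each). The groups did not overlap for either gene, which was so of 11.2% of all tested rows in that direction. They belong to a list of 20 partners and regulators, of which 19 were tested, 3 higher and 16 lower, with a median of -0.04. YWHAZ, one of the adaptors that bind phosphorylated BAD, was its most abundant gene, at 13.09 with VS-4718 and 13.11 with vehicle.

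Of 14 other BCL2 relatives 4 were tested, 2 with higher and 2 with lower means and a median of 0.00, and 0 had an unadjusted limma p under 0.05. BECN1, an autophagy protein with a BH3 helix, was the most abundant and differed by 0.00 (SE 0.09, 95% interval -0.22 to 0.22). BNIP3L, a mitophagy receptor, differed by 0.29 (SE 0.28). PMAIP1, BIK and BCL2A1 had no row among those used here.

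Downstream of the mitochondria, 7 of 8 tested genes of the apoptosome and caspase list had lower means, with a median of -0.10. CASP8, the initiator caspase of death receptors, had log2 values of 0.32 with VS-4718 and 1.10 with vehicle (difference -0.78, SE 0.29, limma adjusted p = 0.481). Its mean of 0.71 lay just above the filter at 0.70 and its VS-4718 mean below it, so it passed the filter only through its vehicle libraries; it is among the 8 lower genes counted above. ENDOG, a mitochondrial nuclease, had 3.28 with VS-4718 and 3.68 with vehicle (difference -0.41, SE 0.15, adjusted p = 0.470). PARP1, a caspase substrate and the most abundant gene of the list, had 7.78 and 7.82. All 4 tested IAPs and antagonists had lower means, with a median of -0.29. Among them DIABLO, which is released from mitochondria and blocks IAPs, had 6.26 with VS-4718 and 6.53 with vehicle (difference -0.27, SE 0.07, adjusted p = 0.305). Of the 12 genes of the death receptor list only 4 had a row, and the others cannot be judged here. Among those 4 only RIPK1 was high enough to test, at 2.98 with VS-4718 and 2.92 with vehicle (difference 0.06, SE 0.10).

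Upstream factors and kinases had 7 higher and 12 lower means among 19 tested, with a median of -0.04. JUN, an AP-1 factor, had log2 values of 1.77 ± 0.34 with VS-4718 and 3.21 ± 0.09 with vehicle (adjusted p = 0.0723). DDIT3 (CHOP), a stress factor known to act on BCL2 family genes, had 5.16 ± 0.09 with VS-4718 and 5.81 ± 0.14 with vehicle (difference -0.65, SE 0.09, adjusted p = 0.102). ATF4, the most abundant of this list, had 8.51 ± 0.03 with VS-4718 and 8.73 ± 0.03 with vehicle (adjusted p = 0.179; SD, n = 3 each, limma). MAPK8, which encodes the kinase JNK1 and can phosphorylate BMF and BCL2L11, went the other way, at 3.64 with VS-4718 and 3.09 with vehicle (difference 0.54, SE 0.21, adjusted p = 0.489). FOXO3, a known activator of BBC3 and BCL2L11, differed by -0.07 (SE 0.14).

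**Figure D5:**
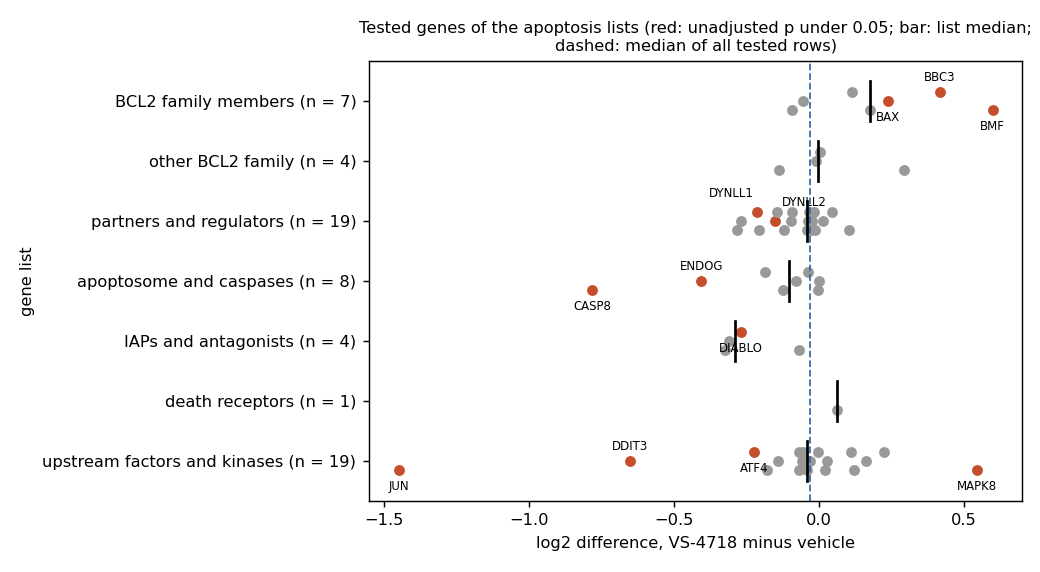
Log2 difference, VS-4718 minus vehicle (x axis), of the tested genes of the BCL2 family and of the 6 surrounding lists (y axis); red marks an unadjusted limma p under 0.05, black bars list medians and the dashed line the median of all tested rows. BMF, BBC3 and BAX lie to the right, and 8 of the 9 red genes of the other lists lie to the left.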

How the data were processed

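Per the labels' protocols, total RNA was isolated with TRIzol and a column, and a company made and sequenced the libraries. Per the submitters' processing notes, the authors used kallisto (no version) and GRCh38; no source used here gives the index, annotation, strandedness or filters. The deposited values, in log2 units per gene symbol, behave as TPM: put back on the linear scale, columns sum to 836527 to 840714, and the lowest value is -27.80. All 6 value columns were used. The unit was read from the values.

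Values were fitted as deposited with limma 3.58.1 (R 4.3.3; trend, group only, two-sided), VS-4718 minus vehicle, on rows with a mean above 0.70. For 1 gene in 3 against 3 libraries, an exact permutation test reaches p = 0.1 at best, so only the model across rows was used. P-values measure the spread between these libraries, which may be technical. The script was tested on simulated data. Members and lists were chosen with earlier results of these data known. Text names all members, list genes at an unadjusted limma p under 0.05 and each list's most abundant gene. FOXO3, BNIP3L, MITF, GPR137 and the markers named singly fall outside that rule and were picked once their values were known. The marker lists that were summed had been fixed for the check. Other settings tried were a replicate block, leaving out each library, equal medians, no filter, a filter at 50%, no trend, quality weights, robust variances and a pseudocount of 1; using human-named rows only, rescaled, was added after seeing the data. Plots used matplotlib 3.10.9.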

Additional observations from a re-analysis of the deposited data

How the results depend on the processing

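No member passed in any setting, and BMF stayed between 0.56 and 0.66. The count of all rows past the threshold was 12 and moved most: 0 with the replicate block, 0 in limma without trend, and 0 to 7 with a library left out (7 when vehicle replicate 2 was left out, 1 when VS-4718 replicate 1 was, and 0 for each of the other 4). At an unadjusted p under 0.05 there were 793, 910 and 710 to 987 rows in these fits. The block and the loss of a library both cost degrees of freedom, but the cause of these lower counts was not tested in any of the fits. Residuals of libraries with the same number correlated at 0.14, 0.05 and 0.03, against -0.09 to 0.05 for other pairs. These values do not settle whether the libraries were paired. The block had been planned as an alternative, and it changed no call among the members. With the block the unadjusted limma p of BMF was 0.00266, against 0.000324 without it. Members at an unadjusted p under 0.05 numbered 2 or 3 in every setting. List genes at that p numbered 9, and 5 to 8 with a library left out, 5 being without vehicle replicate 2. Single libraries moved the small differences of the other members by over 1.5 times. BAD was 0.09 without vehicle replicate 1. MCL1 was 0.05 without vehicle replicate 2, and leaving out VS-4718 replicate 2 or 3 gave 0.19 or 0.06. BCL2 was -0.17 and -0.03 without vehicle replicates 1 and 3, and -0.02 and -0.18 without VS-4718 replicates 2 and 3. BCL2L1 ran from -0.12 to 0.030 with a library left out, positive only without VS-4718 replicate 2 and within 1.5 times its value of -0.05 only without VS-4718 replicate 3. BCL2L11 ran from -0.72 to 0.31. With human-named rows only, a choice made after seeing the data, 9 rows passed.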

Other observations

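Within a library, BMF minus BCL2L1 on the log2 scale lay between -0.25 and 0.04 with VS-4718 and between -0.94 and -0.53 with vehicle. BMF minus MCL1 lay between -1.45 and -1.10 with VS-4718 and between -1.87 and -1.66 with vehicle. BMF minus BCL2 lay between 2.59 and 3.00 with VS-4718 and between 2.09 and 2.25 with vehicle. A factor that scales a whole library cancels in these differences, and whether one was at work was not tested. All of these pairs contain BMF and so repeat its difference. Of the 12 pairs of a tested pro- and anti-apoptotic member, 7 were higher with VS-4718 without overlap and 0 lower. Except for BAD minus BCL2, those 7 contain BMF, BBC3 or BAX and so repeat the differences of these genes. The pairs share the same few genes, so their count is no separate evidence about the classes. The groups overlapped for BBC3 minus BCL2, BAD minus BCL2L1, BAD minus MCL1, BAX minus BCL2 and BAX minus MCL1. The share among pairs of other rows was not computed.

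The rows whose pattern over the 6 libraries was most like BMF, among rows at or above the median level, were GM15732 (Pearson r 0.99), GM4857 (0.98), NFKBIA (0.97), EIPR1 (0.97) and GM9644 (0.97). GM15732, GM4857 and GM9644 are among the rows that matched no human gene. NFKBIA, the inhibitor of NF-kappaB, had log2 values of 4.59 with VS-4718 and 4.09 with vehicle (limma adjusted p = 0.180). The most opposed were ZFP36L2, a protein that binds AU-rich elements of mRNAs (-0.99), PDHA1 (-0.99), DYNLL2 (-0.98), PUM3 (-0.98) and PRPF4B (-0.98). These values are a description and include the difference between the groups. Among the members, r with BMF was 0.84 for BBC3, 0.80 for BAX, 0.66 for BAD and 0.51 for the inhibitor MCL1, and -0.30 for BCL2L1 and -0.31 for BCL2.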
